A study of Rattus norvegicus with 2 samples.

Results

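The genes described here are the neurotrophins *Bdnf* and *Ntf3*, the neurotrophin receptors *Ntrk2*, *Ntrk3* and *Ngfr*, and *Gdnf* with its receptor genes *Gfra1* and *Ret*. They are 8 of the 32662 rat genes in the deposited expression table. Their rows were taken by gene symbol, without a cut on a measured value. The choice of genes was made with earlier results of these data known. Each symbol matched 1 gene, and no other listed gene overlaps any of the 8 loci. The study compared retinas of Long-Evans rats aged 2 months. CTRL is the control retina, described in the study's methods as sham operated. IR12 is an ischemic retina, whose blood supply was interrupted and then restored, taken 12 hours after reperfusion. Total RNA was depleted of ribosomal RNA and sequenced from 1 library per condition. With no replicate, no spread between animals is known, no difference below was tested, and neighbours in an order of levels cannot be said to differ. The methods speak of a pair of retinas for the pair of libraries, so each library is taken as a single retina.

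Neurotrophins are secreted survival factors made as larger precursors. BDNF acts through the receptor tyrosine kinase TrkB, the product of *Ntrk2*, and neurotrophin-3 mainly through TrkC, the product of *Ntrk3*. All neurotrophins and their precursors also bind the p75 neurotrophin receptor, the product of *Ngfr*, which lacks kinase activity and with sortilin can signal cell death when a precursor binds. GDNF binds GFRα1, a protein anchored in the outer membrane layer, and the pair engages the receptor tyrosine kinase RET. In the retina BDNF and GDNF are known as survival factors of ganglion cells and photoreceptors, and p75 has been described in Müller glia and in cells of vessel walls.

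Levels are FPKM, a unit defined by transcript length and mapped reads, so they can be compared between genes. With which options the libraries were scaled is not given in the sources used here. Differences are log2 ratios of IR12 over CTRL after 1 was added to each FPKM, which makes the change of scarce genes look smaller than it is. A gene was counted as higher or lower when this ratio reached 2-fold, a log2 ratio of 1 or -1. All genes with an FPKM of at least 1 in either library, 13599 in number, served as the background. A listed FPKM of 0 is not read as silence, since *Hprt1*, a housekeeping gene, is listed at 0 in both libraries.

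*Ngfr* was the member that differed most between the libraries. Its FPKM was 2.23 in CTRL against 12.96 in IR12, which is 5.80-fold higher and a log2 ratio of 2.11. Of the 8 members, 1 was at least 2-fold higher in IR12, against 6.56% of the background genes, and 0 were at least 2-fold lower, against 6.12%. Counts as deposited in the lists below are read against these shares too. The members' median log2 ratio was -0.18, and that of the background genes was 0.02. An FPKM of at least 1 in either library was reached by 7 members, *Ntf3* through IR12 alone, while *Gdnf* stayed below it.

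**Figure D1:**
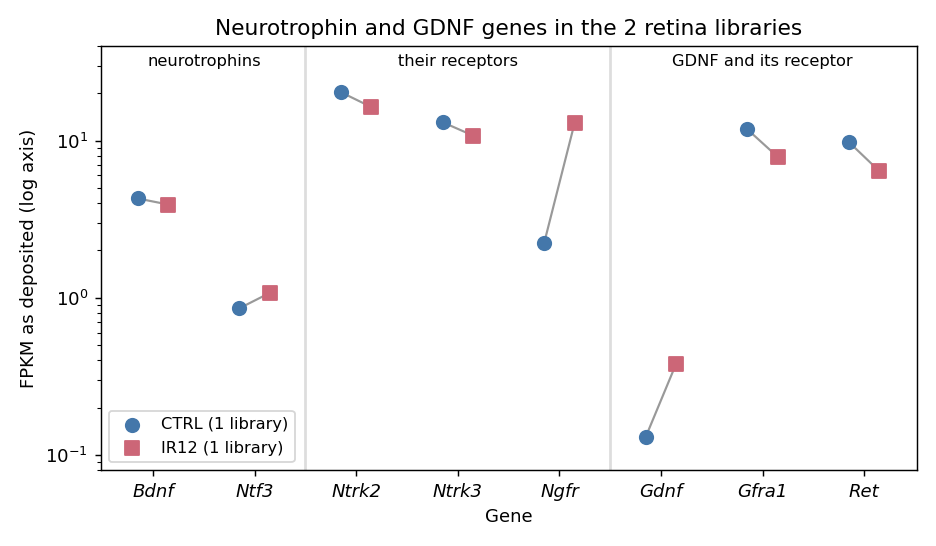
FPKM of the 8 genes in CTRL (circles) and IR12 (squares), 1 library each, on a log axis, with a line joining the values of a gene. *Ngfr* goes from 2.23 to 12.96, and the 5 genes whose values are lower in IR12 as deposited (*Bdnf*, *Ntrk2*, *Ntrk3*, *Gfra1* and *Ret*) are higher in IR12 when both libraries are scaled to the same sum.

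The direction of the smaller differences depends on how the libraries are scaled. As deposited, *Ngfr*, *Gdnf* and *Ntf3* were higher in IR12 and the other 5 members were lower, but with the FPKM of each library scaled to the same sum (TPM scale) all 8 log2 ratios were above 0. That scaling raises IR12 over CTRL by a log2 value of 0.65, before the pseudocount is added, and moves the median of the background genes from 0.02 to 0.59. Small non-coding RNAs, recognised by symbol, take 67.9% of the summed FPKM in CTRL and 46.2% in IR12. With these RNAs left out of the sum, IR12 is lowered by 0.10 instead, and the 5 members were again lower. On the TPM scale every member except *Ngfr* had a log2 ratio below the median of 0.59, and *Ngfr* had 2.58. As deposited, 51.7% of the genes past the 2-fold limit were higher in IR12, and on the TPM scale 86.6%. The share of background genes past the limit on the TPM scale was 20.7% as higher and 3.21% as lower, and counts on that scale are read against these shares.

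**Figure D2:**
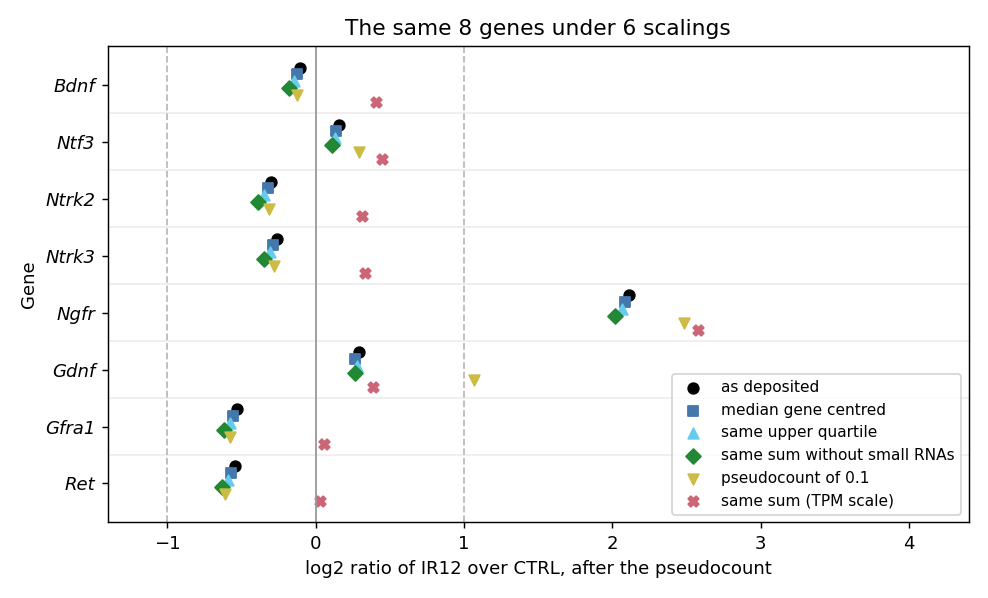
Log2 ratio of IR12 over CTRL for each of the 8 genes under 6 ways of scaling or of setting the pseudocount, with dashed lines at 2-fold. *Ngfr* lies between 2.02 and 2.58, *Gdnf* passes the limit with a pseudocount of 0.1 alone, and *Bdnf*, *Ntrk2*, *Ntrk3*, *Gfra1* and *Ret* are below 0 except on the TPM scale.

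Of the ligands, *Bdnf* (rn6, chromosome 3, 100768637 to 100819210) had 4.28 FPKM in CTRL and 3.92 in IR12. Its log2 ratio of -0.10 as deposited was 0.41 on the TPM scale. *Ntf3* (chromosome 4, 158636884 to 158705886) was lower in level, with 0.858 in CTRL and 1.07 in IR12. Its log2 ratio of 0.16 was above 0 under every scaling tried. *Bdnf* was therefore the more abundant neurotrophin in both libraries, at 4.99 times the FPKM of *Ntf3* in CTRL and 3.65 times in IR12. *Ntf4*, the gene of neurotrophin-4, had 0.116 in CTRL and was listed at 0 in IR12.

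Among the receptors, *Ntrk2* (chromosome 17, 5933729 to 6244676) was the most abundant of the 8 members in both libraries. Its FPKM was 20.3 in CTRL against 16.3 in IR12, a log2 ratio of -0.30 as deposited and 0.31 on the TPM scale. *Ntrk3* (chromosome 1, 139890560 to 140262503) was next in CTRL, with 13.1, and had 10.8 in IR12. Its log2 ratio was -0.26 as deposited and 0.33 on the TPM scale. The balance between these kinase receptors was nearly the same in both libraries, with 1.55 times as much *Ntrk2* as *Ntrk3* in CTRL and 1.52 times in IR12. These values are for whole genes, so the kinase and truncated forms of TrkB and TrkC were not told apart. Among the genes closest to *Ntrk2* in level, by distance on the log2 scale over the 2 libraries, were *Lypd1* and *Nceh1*, at distances of 0.0056 and 0.011.

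*Ngfr* (chromosome 10, 83389847 to 83408061) moved from the 6th to the 2nd place among the members. Its level stood at percentile 11.1 of the genes with an FPKM of at least 1 in CTRL and at percentile 47.3 in IR12. Its log2 ratio stood at percentile 98.2 of the background genes, and 238 of these genes had a higher ratio. In all 6 settings plotted by gene it stayed past the 2-fold limit. The nearest genes to *Ngfr* in both libraries were *Aprt*, *Fcer1g* and *Fgf2*, at distances of 0.066, 0.088 and 0.10. *Fcer1g* encodes a signalling chain of Fc receptors of leukocytes, and *Fgf2* a fibroblast growth factor.

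Ratios between genes of the same library do not depend on how the libraries are scaled. The FPKM of *Ngfr* was 0.110 times that of *Ntrk2* in CTRL and 0.794 times in IR12. Against *Ntrk3* it was 0.171 times in CTRL and 1.205 times in IR12, so that *Ngfr* passed *Ntrk3* in IR12. Of the summed FPKM of *Ntrk2*, *Ntrk3* and *Ngfr*, the share of *Ngfr* was 6.27% in CTRL and 32.4% in IR12. *Sort1*, the gene of sortilin, the partner of p75 in binding precursors, was more abundant than *Ngfr* in both libraries. Its FPKM was 63.0 in CTRL against 51.3 in IR12, which is 28.2 times and 3.96 times the level of *Ngfr*.

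**Figure D3:**
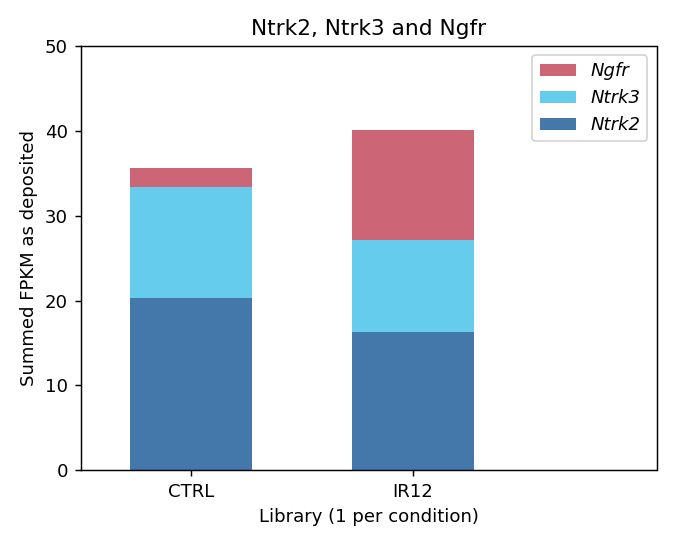
Summed FPKM of *Ntrk2*, *Ntrk3* and *Ngfr* in each library, stacked by gene from 0. The share of *Ngfr* is 6.27% in CTRL and 32.4% in IR12, while the sum as deposited is 35.6 in CTRL and 40.05 in IR12.

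*Gdnf* (chromosome 2, 56887987 to 56910238) was the lowest of the members in both libraries, with 0.130 FPKM in CTRL and 0.382 in IR12. The log2 ratio was 0.29 with a pseudocount of 1 and 1.06 with a pseudocount of 0.1, so the call depends on that setting. Few reads may lie behind these values. The most common ratio of CTRL to IR12 FPKM was 1.708, held by 515 of the 16584 genes above 0 in both libraries, as for genes with equal numbers of reads if FPKM was scaled to depths that differ by this factor. The sequenced read totals given in the methods differ by a smaller factor, and the cause of that gap was not tested. If this step is 1 read, the reads of *Gdnf* in IR12 and CTRL stand at a ratio of 5.0, which 5 reads against 1 read would give, or a multiple of these. For 5 reads against 1 the FPKM ratio of 2.93 has an exact 95% confidence interval of 0.328 to 138, which covers counting error only. A difference in *Gdnf* was not detectable if so few reads were counted.

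*Gfra1* (chromosome 1, 279207586 to 279277339) had 11.8 FPKM in CTRL and 7.86 in IR12. Its log2 ratio was -0.53 as deposited and 0.06 on the TPM scale. *Ret* (chromosome 4, 150202058 to 150244372) had 9.78 in CTRL and 6.38 in IR12, with log2 ratios of -0.55 and 0.03. The 2 receptor components kept their proportion, with 1.21 times as much *Gfra1* as *Ret* in CTRL and 1.23 times in IR12. Neither passed the 2-fold limit under any setting tried. The receptor genes were far above their ligand, since the FPKM of *Gfra1* was 90.4 times that of *Gdnf* in CTRL and 20.6 times in IR12. *Ncam1*, which encodes an adhesion molecule that can signal with GFRα1 in place of RET, was more abundant than *Ret*, with 80.9 in CTRL and 45.0 in IR12.

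The promoters of *Gdnf*, *Gfra1* and *Ret* are shown because these genes act in 1 receptor complex. *Gfra1* and *Ret* also had nearly the same log2 ratio, which lay within the 2-fold limit under every setting tried. RefSeq promoter entries matched 5 of the 8 members (*Bdnf* with 6 entries, *Ntf3* with 3, and *Gdnf*, *Gfra1* and *Ret* with 1 each), and *Ntrk2*, *Ntrk3* and *Ngfr* had none. The sequences are the 250 bases before the RefSeq start site on the GRCr8 assembly, a different build from the rn6 positions given above. They lie at chr2:58621077-58621326 on the plus strand for *Gdnf*, chr1:267555812-267556061 on the minus strand for *Gfra1* and chr4:153040557-153040806 on the minus strand for *Ret*. The motifs searched on either strand were the core promoter motif TATAAA, the GC box GGGCGG, the AP-1 motif TGACTCA and the cAMP response element TGACGTCA, and capitals mark the matches, none of which overlaps another.
Gdnf: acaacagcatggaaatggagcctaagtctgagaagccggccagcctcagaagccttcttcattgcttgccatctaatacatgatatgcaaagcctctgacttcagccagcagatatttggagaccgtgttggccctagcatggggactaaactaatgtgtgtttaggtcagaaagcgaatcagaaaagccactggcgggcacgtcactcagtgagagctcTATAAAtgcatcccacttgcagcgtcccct
Gfra1: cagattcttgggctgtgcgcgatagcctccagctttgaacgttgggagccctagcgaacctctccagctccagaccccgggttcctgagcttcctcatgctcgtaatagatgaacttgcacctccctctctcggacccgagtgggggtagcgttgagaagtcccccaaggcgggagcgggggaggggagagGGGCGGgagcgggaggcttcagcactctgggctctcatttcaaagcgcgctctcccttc
Ret: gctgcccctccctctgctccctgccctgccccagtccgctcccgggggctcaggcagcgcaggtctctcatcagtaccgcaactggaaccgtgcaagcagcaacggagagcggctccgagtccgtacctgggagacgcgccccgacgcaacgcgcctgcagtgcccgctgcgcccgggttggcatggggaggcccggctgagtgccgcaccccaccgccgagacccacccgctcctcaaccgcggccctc
*Gdnf* holds 1 TATAAA and *Gfra1* 1 GGGCGG, and *Ret* holds none of the 4 motifs. The share of bases that are G or C is 49.6% for *Gdnf*, 62.0% for *Gfra1* and 72.8% for *Ret*. Of all 33469 rat promoters of this length, 12.9% hold TATAAA, 30.5% GGGCGG, 4.05% TGACTCA and 1.59% TGACGTCA. A match describes letters and no binding was measured.

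The other ligands and receptors of these families were described as a list of 17 genes, of which 8 reached an FPKM of 1 in either library. None passed the 2-fold limit as deposited with a pseudocount of 1, and the median log2 ratio was -0.16. The median was -0.54 with a pseudocount of 0.1 and 0 on the TPM scale. As deposited, 12 of the 17 were lower in IR12 and 3 were higher, but on the TPM scale 8 were lower and 7 higher. The sortilin relatives *Sorcs1*, *Sorcs2* and *Sorcs3* had 14.95, 10.004 and 5.12 FPKM in CTRL and 13.9, 5.99 and 2.77 in IR12. The log2 ratios of *Sorcs2* and *Sorcs3* were -0.65 and -0.70 as deposited and -0.08 and -0.18 on the TPM scale. As deposited and with a pseudocount of 1, *Ncam1* had the lowest log2 ratio of the list, -0.83. On the TPM scale *Ncam1* had -0.20 and *Gfra4* was lower, with -0.49.

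The other GFRα co-receptors recognise other ligands of the GDNF family. *Gfra2*, the neurturin receptor, had 4.24 in CTRL and 2.73 in IR12, so that *Gfra1* exceeded it 2.78 times in CTRL and 2.88 times in IR12. *Gfra1* made up 69.7% of the summed FPKM of *Gfra1* to *Gfra4* in CTRL and 73.0% in IR12. *Gfra4*, the persephin receptor, had 0.886 in CTRL and 0.142 in IR12, and *Gfra3*, the artemin receptor, had 0 in CTRL and 0.0376 in IR12. Of their ligands, *Pspn* (persephin) had 1.69 in CTRL and 1.13 in IR12, *Artn* (artemin) had 0.0575 in CTRL and was listed at 0 in IR12, and *Nrtn* (neurturin) was listed at 0 in both. *Gas1*, a distant relative of the co-receptors, was also listed at 0 in both. *Gdf15*, a stress-induced cytokine, had a listed 0 in CTRL and 0.482 in IR12, and its receptor gene *Gfral* had 0.0661 and 0.0387. With a pseudocount of 0.1, *Gdf15* was past the limit as higher, and *Gfra4* and *Ntf4* as lower, with log2 ratios of 2.54, -2.03 and -1.11. In that setting 8.59% of background genes were higher and 8.65% lower. *Gdf15*, *Gfra4* and *Ntf4* were each below an FPKM of 1 in both libraries and lie outside that background.

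Neurotrophin precursors are cut inside the cell by furin-like convertases and outside it by plasmin, which tissue plasminogen activator releases from plasminogen. Of 7 genes of these steps, 1 was higher and 0 were lower, against 6.56% and 6.12% of background genes. Their median log2 ratio was 0.12, and 0.41 with a pseudocount of 0.1. The higher gene was *Plat*, the gene of tissue plasminogen activator, with 8.82 FPKM in CTRL and 39.9 in IR12 and a log2 ratio of 2.06. *Plg*, the plasminogen gene, named after its values were seen, was barely detected. Its FPKM of 0.088 in IR12 stood against a 0 for CTRL, and its log2 ratio was the list's median of 0.12. As deposited, 4 of the 7 genes had a higher FPKM in IR12 and 3 a lower one. Cleavage of precursors was not measured. *Cpe*, carboxypeptidase E, which sorts the BDNF precursor for release, was the most abundant, with 662 in CTRL and 463 in IR12 (log2 ratio -0.52, and 0.13 on the TPM scale). The convertase gene *Pcsk7* had 6.40 and 9.99, a log2 ratio of 0.57 that reached 1.13 on the TPM scale. On that scale 2 of the 7 genes were higher, against 20.7% of background genes.

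Adaptors and kinases that carry the signal of Trk receptors and RET inside the cell were a list of 33 symbols and 34 genes, since *Grb2* has 2 listed genes. None passed the 2-fold limit as deposited, and the median log2 ratio was 0.13. FPKM was higher in IR12 for 23 of them and lower for 11, and on the TPM scale higher for 33 with 5 past the limit (*Shc1*, *Shc3*, *Gab2*, *Crk* and *Nras*, named after their values were seen), against 20.7% of background genes on that scale. *Kidins220*, a scaffold of Trk receptors and one of the most abundant of the list, had 121 FPKM in CTRL against 107 in IR12. The highest log2 ratio of the list was 0.78, for *Nras*.

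Proteins that bind p75 or cut it were a list of 12 symbols, of which *Bex1* and *Bex3* were not found under these names. *Ngfrap1*, an older name of *Bex3*, was found. Of the 10 genes found, 1 was higher and 0 were lower, against 6.56% and 6.12% of background genes. Their median log2 ratio was -0.12. The higher gene was *Arhgdia*, whose product holds small GTPases inactive and is bound by p75, with 15.6 in CTRL and 36.4 in IR12 (log2 ratio 1.17). *Ngfrap1* and *Maged1*, both genes of p75-binding proteins, were abundant, with 99.96 and 79.3 in CTRL and 83.1 and 67.9 in IR12. On the TPM scale, where 20.7% of background genes were higher, 3 genes of the list were past the limit, among them *Adam17*, a sheddase named after its values were seen, with a log2 ratio of 1.40. With a pseudocount of 0.1, 1 gene of the list was lower, against 8.65% of background genes. This was *Rtn4r*, also named after its values were seen (0.473 and 0.126, log2 ratio -1.34 in that setting). With an FPKM below 1 in both libraries, *Rtn4r* lies outside that background.

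Genes known to be induced by Trk or RET signalling, and by many other stimuli, were a list of 14. Of these, 4 were higher and 0 were lower, against the same 6.56% and 6.12% of background genes, while the list's median log2 ratio was -0.05. *Dusp6*, a phosphatase that limits MAP kinase signalling, had 3.94 FPKM in CTRL and 36.8 in IR12 (log2 ratio 2.94). *Spry2*, another inhibitor of receptor tyrosine kinase signalling, had 5.29 and 23.6 (1.97). The immediate early genes *Npas4* and *Fos* had 0.460 and 7.40 in CTRL and 4.12 and 21.2 in IR12, with log2 ratios of 1.81 and 1.40. As deposited, 8 of the 14 had a lower FPKM in IR12, among them the immediate early genes *Egr1* (9.58 and 5.76) and *Arc* (0.116 and 0.108), named after their values were seen, and on the TPM scale 2 of the 14 were lower. *Homer1* and *Spred1* were the most abundant of the list, with 66.5 and 49.4 in CTRL and 61.2 and 38.0 in IR12. Their log2 ratios were -0.12 and -0.37 as deposited, and 0.52 and 0.26 on the TPM scale.

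**Figure D4:**
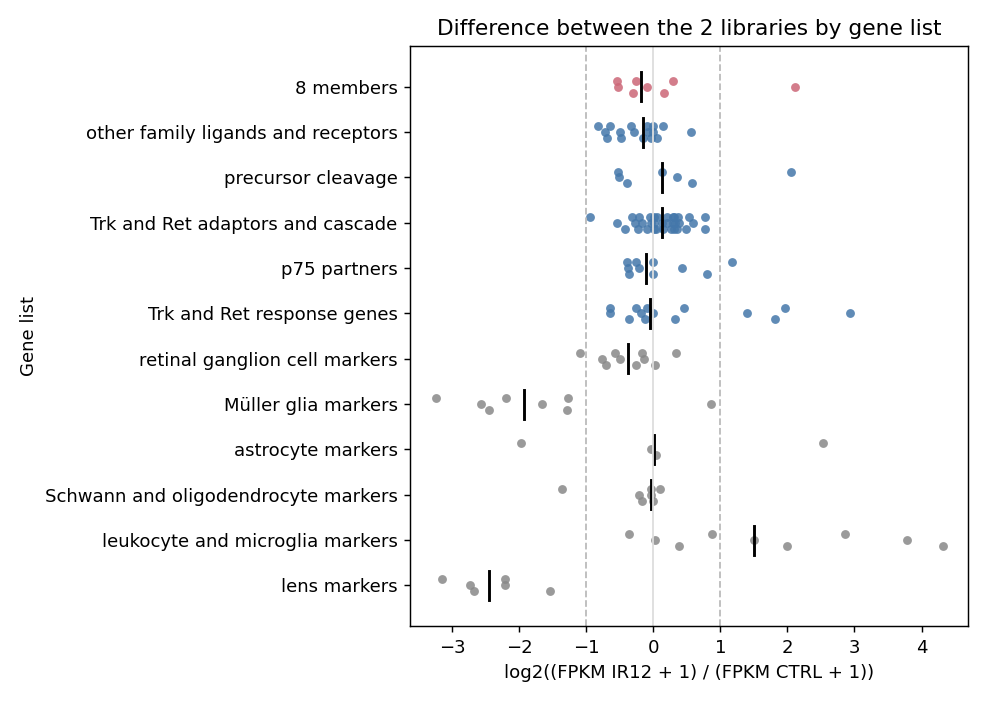
Log2 ratio of IR12 over CTRL, FPKM as deposited, for each gene (points) of 12 lists, with the median of each list as a bar and dashed lines at 2-fold. The 8 members have a median of -0.18, which is 0.36 on the TPM scale, while Müller glia and lens markers have medians of -1.93 and -2.45 and leukocyte and microglia markers 1.497.

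The tissue label was checked against rod markers, since rods make up most cells of the rat retina. The 7 rod markers summed to 15044 FPKM in CTRL and 18273 in IR12, and 0 of them passed the limit as deposited. FPKM was higher in IR12 for 3 of them and lower for 4. *Gnat1*, the rod transducin gene, had 4027 and 4237, and *Sag*, the rod arrestin gene, had 2482 and 4703, a log2 ratio of 0.92 that was 1.57 on the TPM scale. Both were named after their values were seen. Other cell types of the retina and its surroundings are described because a bulk level cannot tell fewer cells of a type from less RNA per cell. Ganglion cells, which respond to BDNF, had 1 of 10 markers lower, *Pou4f2* (3.41 in CTRL, 1.06 in IR12, log2 ratio -1.10). Their summed FPKM as deposited was 399 in CTRL and 309.6 in IR12, and the most abundant marker, *Nefl*, had 132 and 88.8. The median log2 ratio of the list was -0.38 as deposited but 0.10 on the TPM scale, with 6 of the 10 above 0. With a pseudocount of 0.1, 3 of the 10 were past the limit as lower, against 8.65% of background genes. Among these was *Pou4f1*, named after its values were seen, with 0.245 in CTRL and 0.0359 in IR12. With an FPKM below 1 in both libraries, *Pou4f1* lies outside the background. None of the 6 amacrine, 4 horizontal and 5 bipolar cell markers passed the limit as deposited. With a pseudocount of 0.1, 2 amacrine markers were lower, against the same 8.65% of background genes. With centred ratios, a common sum without small RNAs or a common upper quartile, 1 amacrine marker was lower. The shares of background genes lower in these settings were 6.37%, 6.90% and 6.52%. As deposited, the sums of the amacrine, horizontal and bipolar markers were 242, 77.0 and 489.7 in CTRL and 156, 45.2 and 357 in IR12. The most abundant of each were *Gad1* (107 and 82.7), *Calb1* (74.2 and 43.2) and *Trpm1* (189 and 159). On the TPM scale their median log2 ratios went from -0.82 to -0.20 for amacrine, from -0.30 to 0.03 for horizontal and from -0.43 to 0.19 for bipolar cells. Of 5 cone markers, 1 was lower, *Opn1sw* (6.68 and 2.66), and *Arr3*, named after its values were seen, lay just inside the limit (138 and 69.0, log2 ratio -0.99). In 4 of the alternative settings 2 of the 5 were lower, against 6.37% to 8.65% of background genes. On the TPM scale 0 were lower, against 3.21%. *Gnat2* was the most abundant (179 and 138), and the sum as deposited was 391 in CTRL and 257 in IR12.

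Markers of glia and vessel cells, some of which are known to carry p75, did not all differ in the direction of *Ngfr*. Of 8 Müller glia markers, 7 were lower in IR12, and 5 on the TPM scale, and their summed FPKM was 1628 in CTRL and 573 in IR12. *Glul*, the most abundant in CTRL, had 754 in CTRL and 126 in IR12, *Aqp4* had 48.0 and 4.16, *Kcnj10* had 7.07 and 0.467, and *Rlbp1* had 126 and 26.8. The remaining marker, *Vim*, named after its values were seen and above *Glul* in IR12, had 121 and 221, a log2 ratio of 0.86 that was 1.51 on the TPM scale. Of 4 astrocyte markers, with a sum of 28.8 and 27.8, *Gfap* was higher (2.95 in CTRL, 21.9 in IR12) and *S100b*, the most abundant in CTRL, was lower (25.8 and 5.81). *Gfap* is also induced in stressed Müller glia. Of 7 Schwann cell and oligodendrocyte markers, *Pmp22*, the most abundant in CTRL, was lower (22.7 and 8.23), and their sum was 35.1 in CTRL and 20.2 in IR12. *Sox10*, a defining gene of both cell types, was listed at 0 in CTRL and at 0.0672 in IR12. Of the 5 endothelium and pericyte markers found (*Pecam1* was not), *Rgs5*, the most abundant, was lower (38.6 and 17.6), and the sum, most of it *Rgs5*, was 48.4 and 25.6. The endothelial marker *Cdh5*, named after its values were seen, was within the limit, with 0.883 in CTRL against 1.63 in IR12. As deposited, FPKM was higher in IR12 for *Cdh5* alone and lower for the other 4 markers. Among these 4 was *Cldn5*, also named after its values were seen (2.92 and 1.65, log2 ratio -0.57). On the TPM scale 3 of the 5 log2 ratios were above 0 and 2 below.

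Leukocyte and microglia markers differed among themselves. Of 9 markers, 5 were past the 2-fold limit as higher, and the summed FPKM of all 9 was 21.6 in CTRL and 135 in IR12. The most abundant, *Lyz2*, had 9.73 in CTRL and 76.9 in IR12. *S100a9* had 0.199 and 23.0, *S100a8* went from a listed 0 to 12.8, and *Itgam* had 0.693 and 5.71. The last of the 5, *Ptprc*, named after its values were seen, had 0.408 and 2.98. The microglia markers *Cx3cr1*, *Csf1r* and *Aif1*, also named after their values were seen, were within the limit. *Cx3cr1* had 1.16 in CTRL against 0.676 in IR12, *Csf1r* 3.61 against 3.71 and *Aif1* 5.42 against 7.36. The other marker, *Cd68*, had 0.437 against 1.65, with a log2 ratio of 0.88 that was 1.11 on the TPM scale and 1.70 with a pseudocount of 0.1. The part of leukocytes, Müller glia, astrocytes or vessel cells in the level of *Ngfr* was not tested.

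Of the tissues next to the retina, the lens list differed as a whole. All 6 lens markers were lower, with a sum of 2064 in CTRL and 312 in IR12 and *Cryaa* at 1118 and 124. Of 5 pigment epithelium markers, *Rpe65* was lower (11.1 and 4.88), with *Ttr* the most abundant (61.8 and 87.4). As deposited, 4 of these 5 had a lower FPKM in IR12, and their sum of 85.9 and 103 was higher through *Ttr* alone. Of 4 blood markers, *Hba1* and *Hba2* were not found and none passed the limit as deposited, with *Hbb* at 20.4 and 35.1 and a sum of 20.8 and 35.3. Among the single lower markers, *Pou4f2*, *Opn1sw*, *Rgs5*, *Pmp22* and *Rpe65* were within the limit on the TPM scale, with log2 ratios of -0.65, -0.54, -0.46, -0.75 and -0.46. On that scale *Ttr* and *Hbb* were past the limit as higher, with log2 ratios of 1.13 and 1.37. The part of these tissues in the levels of the 8 members was not tested. Among reference genes, *Gapdh* had 716 in CTRL and 690.1 in IR12, *Ppia* 832 and 903, and *Tbp* 24.8 and 28.9. *Actb* had 259.9 and 537, a log2 ratio of 1.04 that was 0.94 with small RNAs left out of the sum.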

How the data were processed

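RNA of 1 CTRL and 1 IR12 rat retina, prepared with a stranded kit and rRNA removal, was sequenced by the study. The authors deposited gene expression as FPKM, with Ensembl identifiers and rn6 positions. The submitters' processing notes name STAR 2.5.2b, Cuffdiff 2.2.0 and rn6. Starts were written counting from 1. Depth is not stated in the table, and relative depth was read from the most common FPKM ratio.

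Log2 ratios of (FPKM + 1) were computed from FPKM as deposited, with an FPKM of at least 1 in either library for the background and a limit of 2-fold. No test was run. Tried in turn were 0.1 in place of 1, ratios centred on the median gene, a common sum (TPM scale), a common sum without small non-coding RNAs (recognised by symbol), a common upper quartile, and a minimum FPKM of 5 or none. The computations were tested on simulated data.

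Members and lists were chosen with earlier results of these data known. Named are the members, the other family genes and the reference genes. Named of the cleavage, adaptor, p75 and response lists are genes past 2-fold (up to 6) and the 3 most abundant. Named of marker lists are the most abundant gene, up to 4 genes past 2-fold and genes at 0 in both. The 3 genes nearest to *Ntrk2* and to *Ngfr* were also named. Some genes that this rule takes are not reported here. Promoters came from RefSeq (GRCr8). Software was pandas 2.3.3 and numpy 2.4.6 in Python 3.11.15, with scipy 1.17.1 for intervals and matplotlib 3.10.9 for plots.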

Additional observations from a re-analysis of the deposited data

How the results depend on the processing

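The 13 results that the alternatives cover are the log2 ratio of each member, the members' median, and the counts of members and of all genes past 2-fold in each direction. Of 88 recomputed values, 78 kept their direction and side of the limit or, for counts, stayed within 1.5 times, but 18 of these could not change, since a minimum FPKM leaves a gene's own ratio as it is and genes under 1 in both libraries cannot reach 2-fold. On the TPM scale the log2 ratios became 0.41 for *Bdnf*, 0.31 for *Ntrk2*, 0.33 for *Ntrk3*, 0.056 for *Gfra1* and 0.028 for *Ret*, and the members' median 0.36. On that scale 2817 genes were higher and 436 lower, against 892 and 832 as deposited. That scaling raises every gene of IR12 by construction. With a pseudocount of 0.1, *Gdnf* had a log2 ratio of 1.06 and 2 members were at least 2-fold higher, against 8.59% of background genes. A smaller pseudocount weighs less on low values. *Gdnf*, below an FPKM of 1 in both libraries, lies outside that background. *Ngfr* ranged from 2.02 to 2.58. With a minimum FPKM of 5, *Bdnf*, *Ntf3* and *Gdnf* gave no value. No paired analysis was possible because each condition has 1 library. Depth may limit what can be said of *Gdnf* and of other ligands at low FPKM, which was not tested. Counting intervals hold no variation between animals.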
